A study of Mus with 4 samples.

Results

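TGF-beta and BMP pathway genes encode the secreted ligands of the transforming growth factor beta (TGF-beta) family, the proteins that store or block these ligands, their receptors, the Smad proteins that carry the signal to the nucleus, and the inhibitors of that route. A list of 51 such genes was followed here. Its members were the rows of the deposited signal table whose gene symbol is on the list, with every probe kept. They came to 51 of 26893 named genes on the array and 96 of 56605 probes. By role, 17 members were ligands, 5 were latency and matrix proteins, 6 were secreted inhibitors and binding proteins, 12 were receptors, 6 were Smads and 5 were intracellular or membrane inhibitors.

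The samples came from an immortalized murine podocyte cell line that had been differentiated without interferon-γ at the nonpermissive temperature. Podocytes are the epithelial cells that form the filtration barrier of the kidney glomerulus. Both groups were exposed for 24 h to a lentiviral vector with 8 µg/mL polybrene, and total RNA was taken at 48 h after the vector. In the Venus group (2 samples) the vector expressed Venus, a fluorescent protein used as the control, and in the OASIS group (2 samples) it expressed the active N-terminal form of OASIS, a transcription factor of the endoplasmic reticulum membrane encoded by Creb3l1. All samples are thus of 1 cell line, carried a lentivirus and overexpressed a protein. The labels do not say whether the 2 samples of a group were separate cultures, so that every p-value here measures only the spread between these samples.

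Ligands of the family bind pairs of type I and type II receptor kinases at the cell surface. TGF-betas and activins mainly act through Smad2 and Smad3, and bone morphogenetic proteins (BMPs) through Smad1, Smad5 and Smad9, and both branches share Smad4. In the glomerulus, TGF-beta signalling is known for matrix deposition and podocyte loss, and Bmp7 is known as a kidney ligand that opposes several of these effects.

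Expression is given as background-corrected array intensity, in log2 relative to the 75th percentile of the same array, so that 0 is the 75th percentile and each unit is a factor of 2. A fold change is always OASIS over Venus. A probe was past the threshold with a fold over 2 or under 0.5 and a Benjamini-Hochberg adjusted p under 0.1 in limma, adjusted over all 31590 tested probes, and a gene was counted by its brightest tested probe. A single slide and scan (1 of each) held all the arrays, no spot was saturated, and between 33938 and 34418 of 59305 spots per array were well above background. The number of arrays, 2 per group, limits the precision. The single probe for Creb3l1 had a log2 fold change of -0.17 (SE 0.10, limma adjusted p = 0.292), and which part of the transcript it reads, and so whether it can read the transgene, is not given in the sources used here. Of the podocyte markers Synpo, Podxl and Wt1 were tested, with log2 fold changes of -0.15, 0.28 and 4.62, while Nphs1 did not pass the filter on background. As linear intensity in units of the 75th percentile, all 16 podocyte markers on the array, of which 12 were tested, summed to between 66.0 and 70.5 with Venus and between 61.2 and 67.6 with OASIS. Markers of mesangial cells and fibroblasts (9, of which 7 were tested) summed to between 76.2 and 77.4 with Venus and between 60.8 and 62.6 with OASIS, and among the latter list Pdgfra, not well above background on either Venus sample, was at least 7.95-fold higher with OASIS, Ren1 had a log2 fold change of -2.91, and Lum was well above background on no array. Endothelial markers (8, of which 4 were tested, with Cdh5, Emcn, Kdr and Tek well above background on no array) went from 1.97 to 2.15 with Venus and from 2.57 to 2.89 with OASIS, and leukocyte markers (7, of which 5 were tested, Adgre1 well above background on no array) from 17.6 to 18.7 and from 14.5 to 14.8. The summed level of tubular markers (8, of which 4 were tested, with Slc12a1, Slc12a3 and Umod well above background on no array) overlapped, at 32.0 to 41.6 with Venus and 33.0 to 50.2 with OASIS, while Lrp2 among them rose, with a log2 fold change of 1.62 (limma adjusted p = 0.0148). Such sums follow the brightest genes of a list. Most of the mesangial and fibroblast sum was Acta2, at a log2 mean of 6.11 with Venus and 5.83 with OASIS. It was not past the threshold (log2 fold change -0.27, limma adjusted p = 0.109). Most of the leukocyte sum was Itgam, at 3.82 and 3.31 (log2 fold change -0.51, limma adjusted p = 0.0428). The brightest tested podocyte marker was Actn4, at 5.07 and 4.85 (log2 fold change -0.22, limma adjusted p = 0.169). Wt1, at -5.56 and -0.94, added little to the podocyte sum. By list, 2 podocyte markers rose and 1 fell, 1 mesangial or fibroblast marker rose and 1 fell, 1 endothelial and 1 tubular marker rose, and no leukocyte marker did either. Whether these markers have a part in the results below was not tested.

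Among the pathway genes 5 rose with OASIS and 0 fell. The matrix protein Tgfbi, the decoy receptor Bambi and the ligand Bmp7 had the highest fold changes, each over 8-fold, followed by the ligand Tgfb3 at 4.47-fold and the BMP-branch Smad Smad9 at 2.18-fold. These were 5 of the 47 members with a tested probe, or 10.6%, where 6.19% of all 16313 tested genes rose. Sizes and order depended on the background correction. With normexp, an alternative correction, the log2 fold changes were 1.43 for Tgfbi, 2.06 for Bambi and 1.97 for Bmp7, each less than 8-fold, and 1.60 for Tgfb3. Of all tested genes 1.86% fell, so that 8.05% were past the threshold in either direction. The other 42 tested members had log2 fold changes between -0.91 and 0.98, so that none reached 2-fold on the lower side and the count of 0 rests on the fold limit, not on the p-values. The median log2 fold change was -0.13 over the tested members and -0.059 over all tested genes.

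**Figure D1:**
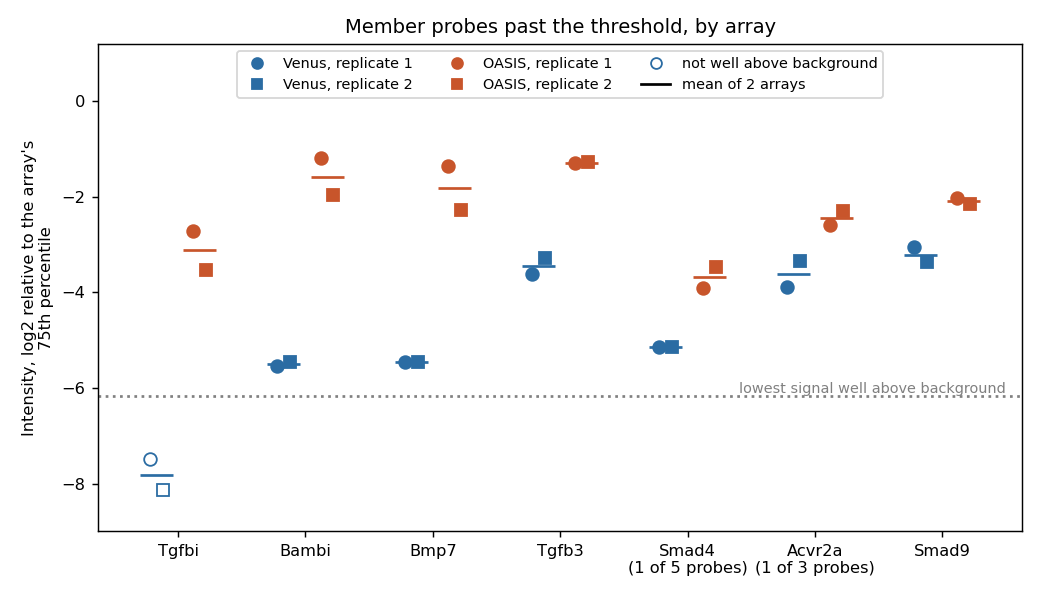
Intensity of the 7 member probes past the threshold on each of the 4 arrays, in log2 relative to the 75th percentile of the array (y axis). Blue symbols are Venus and orange symbols OASIS, circles replicate 1 and squares replicate 2, bars the mean of 2 arrays, open symbols arrays on which the probe was not well above background, and the dotted line the lowest signal well above background on the array where it was lowest. Both OASIS arrays lie above both Venus arrays for each probe, and the Venus values of Tgfbi lie below the dotted line.

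The ligands held 2 of the 5 genes that rose, among 14 ligands tested. Bmp7 (probe A_52_P278354, band 2qH3) is a BMP made by podocytes and tubule cells that the developing kidney needs. Its intensity was -5.45 and -5.46 with Venus and -1.35 and -2.27 with OASIS. The Venus arrays were close together near the lower end of measured signals, and both OASIS arrays were far above them, with replicate 1 above replicate 2. The log2 fold change was 3.65 (SE 0.32, limma adjusted p = 0.00653), a 12.5-fold rise. In such bulk samples, more cells that express a gene and more RNA per cell cannot be told apart.

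Tgfb3 (A_51_P124748, band 12qD2), the TGF-beta isoform known for its role in palate and lung development, gave -3.61 and -3.27 with Venus and -1.29 and -1.28 with OASIS. Its OASIS arrays differed less from each other than its Venus arrays, and the gap between the groups was 1.98. The log2 fold change was 2.16 (SE 0.15, limma adjusted p = 0.00448).

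The other TGF-beta isoforms were not past the threshold. Tgfb1 (A_51_P390715), the isoform most often linked to glomerular scarring, gave -0.89 and -0.77 with Venus and -1.15 and -1.19 with OASIS. Both OASIS arrays were below both Venus arrays, by a small margin, with a log2 fold change of -0.34 (95% interval -0.62 to -0.061, limma adjusted p = 0.0811). A second Tgfb1 probe gave -0.23.

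Tgfb2 (A_65_P10913) gave 2.77 and 2.79 with Venus and 2.67 and 2.92 with OASIS. The OASIS arrays lay on either side of the Venus arrays, and the 95% interval of the log2 fold change, -0.33 to 0.35, left no room for a 2-fold difference at this probe. The second Tgfb2 probe (A_51_P317640) read 0.46 and 0.64 with Venus and 1.05 and 1.25 with OASIS, a log2 fold change of 0.60 (limma adjusted p = 0.0391) with the groups apart. The 2 probes of Tgfb2 thus gave different answers, neither of them past 2-fold.

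Gdf15 (A_55_P1960735), a distant family member that many cells secrete under stress, read 7.40 and 7.45 with Venus and 7.51 and 7.41 with OASIS. The groups overlapped, and the 95% interval of its log2 fold change ran from -0.24 to 0.31.

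Among the remaining ligands Bmp2, a BMP that drives bone formation, came closest to the threshold on the upper side. Its log2 fold change was 0.98 (SE 0.14, limma adjusted p = 0.0148), a 1.97-fold difference just inside the limit, which it passed when Venus replicate 2 (1.09) or OASIS replicate 2 (1.08) was left out. At the other end was Bmp3, a BMP that antagonises others of its kind, with -0.91 (limma adjusted p = 0.0699) and an interval from -1.61 to -0.21. Without OASIS replicate 2 it was at -1.29 and past the threshold. Its other probes gave -0.96 and 0.54, the last with overlapping groups, and the mean of its probes was -0.45 (limma adjusted p = 0.319). Inhba, the βA subunit of activin A, gave -0.71 with groups apart (limma adjusted p = 0.0336), and its second probe -0.66. Bmp4, Bmp6, Gdf11 and Inhbb, the activin βB subunit, ranged from -0.59 to -0.37, and Inha, the α subunit that turns activin into inhibin, gave 0.46. Gdf5, a ligand of joint formation, had 2 probes of opposite sign, at 0.60 and -0.31, both with an adjusted p over 0.1. Bmp5, Gdf6 and Gdf10 had 7 probes between them and none was well above background on any array, so that no difference could be measured.

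Latency and matrix proteins held 1 gene that rose of 5 tested. Tgfbi (A_51_P212754, band 13qB1) is a secreted matrix protein that binds integrins and collagens and was named for its induction by TGF-beta. It read -7.49 and -8.14 with Venus, not well above background on either array, and -2.70 and -3.53 with OASIS, well above background on both. Set against the dimmest signal that still counted as measured on the Venus arrays, Tgfbi was at least 8.18-fold higher with OASIS. Its limma adjusted p of 0.00534 comes from a fit to Venus values that were not well above background, and it does not test this bound. The bound holds only for the background correction used, and with normexp the log2 fold change of Tgfbi was 1.43. No second probe reads this gene.

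The 4 latent TGF-beta binding proteins, which anchor TGF-beta in the matrix in its inactive complex, all had log2 fold changes below 0. By the brightest probes these ran from -0.36 to -0.17, and none had an adjusted p under 0.1. A dimmer Ltbp3 probe (A_52_P652936) gave -0.36 with the groups apart (limma adjusted p = 0.0847). Ltbp1 (A_55_P1973033) read 1.48 and 1.55 with Venus and 1.12 and 1.34 with OASIS. The OASIS arrays were both lower, with a log2 fold change of -0.29 (95% interval -0.61 to 0.037, limma adjusted p = 0.156). Its other probes were dimmer and lower with OASIS too, one at -0.52 (limma adjusted p = 0.0343) and one at least 1.84-fold lower, since with OASIS the latter was not well above background.

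No secreted inhibitor rose or fell among 6 tested. Grem1, Chrd and Nog, which bind BMPs and keep them from their receptors, had log2 fold changes of -0.33, 0.40 and 0.32, with limma adjusted p between 0.0947 and 0.103. Fst, which traps activins, gave -0.32, and its relatives Fstl1 and Fstl3 -0.023 and 0.040. By the brightest probe the 95% interval of each of the 6 lay within 2-fold. A dimmer Fstl1 probe (A_55_P2720547) gave -0.70 with the groups apart (95% interval -1.04 to -0.36, limma adjusted p = 0.0254).

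Receptors were 11 tested members, none of which was past the threshold by its brightest probe. The type II receptor for TGF-beta, Tgfbr2 (A_55_P2909739), read 3.82 and 3.90 with Venus and 3.90 and 4.03 with OASIS. Its groups overlapped, with a log2 fold change of 0.10 (95% interval -0.19 to 0.39). Tgfbr1 (A_52_P4538), the type I receptor that Tgfbr2 activates, read 0.19 and 0.15 with Venus and 0.49 and 0.46 with OASIS, a log2 fold change of 0.31 (limma adjusted p = 0.0854).

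Bmpr1a and Bmpr2 were higher with OASIS by their brightest probes and lower by their second probes, which are given below. Bmpr1a (A_55_P2800631), a type I receptor for Bmp2 and Bmp4, read 0.60 and 0.64 with Venus and 1.34 and 1.39 with OASIS. The arrays of each group were within 0.1 of each other, and the log2 fold change was 0.74 (SE 0.099, limma adjusted p = 0.0133), short of 2-fold. Bmpr2 (A_51_P518698), the type II BMP receptor, read 1.25 and 1.30 with Venus and 1.84 and 2.35 with OASIS. Its log2 fold change was 0.83 (SE 0.19, limma adjusted p = 0.0448), and OASIS replicate 2 was well above replicate 1, with a value of 1.08, past the threshold, when replicate 1 was left out. Bmpr1b, the other type I BMP receptor, had 1 probe, well above background on no array.

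Both co-receptors that present ligands to these kinases gave values below 0. Tgfbr3, or betaglycan, had a log2 fold change of -0.74 (limma adjusted p = 0.0363), and Eng, or endoglin, of -0.73 (limma adjusted p = 0.0189), each with the groups apart. The activin receptor Acvr1b gave -0.61 (limma adjusted p = 0.0479). By their brightest probes Acvr1, Acvr2b and Acvrl1 had log2 fold changes of 0.030, 0.29 and -0.13 and adjusted p over 0.1. A dimmer Acvr2b probe (A_65_P12695) gave 0.47 with the groups apart (limma adjusted p = 0.0692). It was not well above background on Venus replicate 2.

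Acvr2a, a type II activin receptor, is the receptor whose probes differed most. By its brightest probe (A_52_P575854) it read -0.95 and -0.92 with Venus and -1.44 and -1.65 with OASIS, a log2 fold change of -0.61 (limma adjusted p = 0.0308). By a dimmer probe (A_55_P2503785) it read -3.89 and -3.34 with Venus and -2.58 and -2.29 with OASIS. This second probe rose, with a log2 fold change of 1.18 (SE 0.23, limma adjusted p = 0.0289), so that a receptor with the groups apart in one direction by one probe had them apart in the other direction by another.

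The Smads held 1 gene that rose among 6. Smad9 (A_55_P2129696, band 3qC), a receptor-activated Smad of the BMP branch, read -3.06 and -3.36 with Venus and -2.03 and -2.15 with OASIS. Both OASIS arrays were above both Venus arrays, with a log2 fold change of 1.12 (SE 0.15, limma adjusted p = 0.0125). This was the smallest fold change among the 5 genes that rose, and its 95% interval, 0.74 to 1.51, reached below 2-fold.

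The other BMP-branch Smads went in different directions. Smad5 had a log2 fold change of 0.86 (SE 0.11, limma adjusted p = 0.0116) by its brightest probe and 0.83 by its second. Smad1 (A_51_P409260) read 3.64 and 3.69 with Venus and 3.25 and 3.36 with OASIS, a log2 fold change of -0.36 (limma adjusted p = 0.0697).

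Of the TGF-beta-branch Smads, Smad3 (A_55_P2101001) read 4.16 and 4.23 with Venus and 4.0 and 4.09 with OASIS. The groups were just apart, with a log2 fold change of -0.15 (95% interval -0.43 to 0.12, limma adjusted p = 0.337). Smad2 gave -0.58 (limma adjusted p = 0.0218) by its brightest probe and 0.93 (limma adjusted p = 0.0227) by its second, with the groups apart in both.

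Smad4, the shared partner of both branches, was read by 5 tested probes, more than any other member. The brightest (A_52_P611867) read 2.75 and 2.83 with Venus and 3.49 and 3.45 with OASIS, a log2 fold change of 0.68 (SE 0.10, limma adjusted p = 0.0166). The dimmest (A_55_P2061724) read -5.15 and -5.14 with Venus and -3.91 and -3.46 with OASIS, and it was the only Smad4 probe to pass the threshold, with 1.46 (SE 0.18, limma adjusted p = 0.0111). Another probe gave 0.64, and the remaining pair -0.38 and -0.31 with adjusted p over 0.1.

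Intracellular and membrane inhibitors held 1 gene that rose of 5. Bambi (A_55_P2807306, band 18qA1), a receptor-like membrane protein without a kinase domain that dampens type I receptor signalling, read -5.53 and -5.46 with Venus and -1.18 and -1.97 with OASIS. Its Venus arrays were close together, and both OASIS arrays were far above them, with a gap of 3.49 between the groups. The log2 fold change was 3.92 (SE 0.28, limma adjusted p = 0.00466), a 15.1-fold rise.

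The inhibitory Smads, which TGF-beta and BMP signals are known to induce, were not past the threshold. Smad7 (A_51_P403636) read 3.08 and 2.92 with Venus and 2.78 and 2.66 with OASIS. Its OASIS arrays were both lower, with a log2 fold change of -0.28 (95% interval -0.59 to 0.032, limma adjusted p = 0.151), and its second probe gave -0.39 (limma adjusted p = 0.0538). Smad6 gave -0.45 (limma adjusted p = 0.0432). Smurf1 and Smurf2, ubiquitin ligases that mark Smads and receptors for degradation, gave -0.027 and -0.24, neither with an adjusted p under 0.1, and a second Smurf2 probe gave 0.57 (limma adjusted p = 0.0261).

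**Figure D2:**
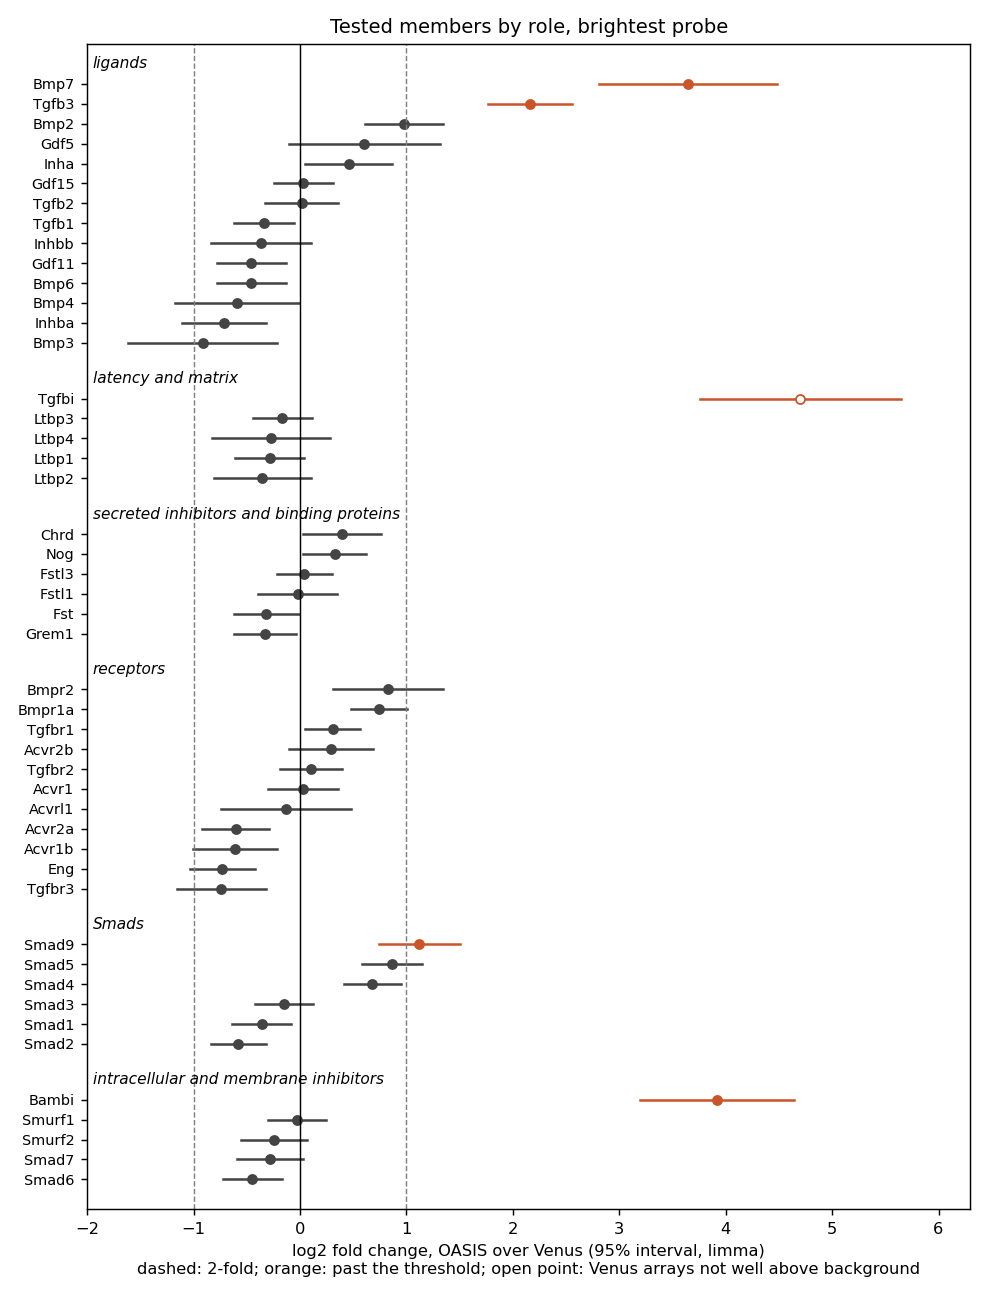
Log2 fold change of OASIS over Venus (x axis) with its 95% interval from limma for the brightest probe of each of the 47 tested members, grouped by role, with 2 arrays per group. Dashed lines mark 2-fold, orange marks genes past the threshold, and the open point marks Tgfbi, whose Venus arrays were not well above background; the 5 orange points lie between 1.12 and 4.70 and no interval lies wholly below -1.

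Below the 2-fold limit many members still differed between the groups. An adjusted p under 0.1 at any fold was found for 25 tested members, or 53.2%, of which 12 were higher and 13 lower, where 36.8% of all tested genes had one. Both OASIS arrays were above both Venus arrays for 17 members, or 36.2%, and below them for 22, or 46.8%. Over all tested genes these shares were 31.3% and 39.7%. The median size of the log2 fold change, regardless of sign, was 0.40 over the members and 0.28 over all genes. The differences were thus spread over both directions, with the 5 genes past 2-fold on one side only.

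For 31 members the whole 95% interval of the brightest probe lay within 2-fold, and for 24 that of every tested probe did, among them Tgfb1, Tgfb2, Tgfbr2, Smad3, Smad7 and Gdf15. For 11 members that were not past the threshold the interval of the brightest probe reached 2-fold. On the upper side these were Smad5, Bmp2, Gdf5, Bmpr1a and Bmpr2, and on the lower side Bmp3, Bmp4, Inhba, Acvr1b, Eng and Tgfbr3. A 2-fold difference in these genes could not be told from a smaller one with 2 arrays per group.

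**Figure D3:**
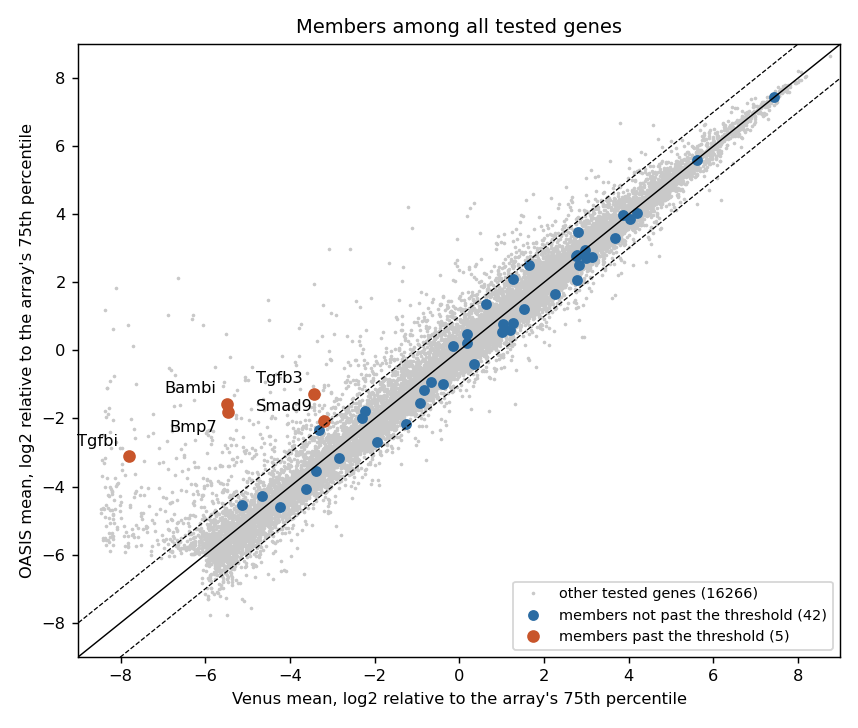
Mean intensity of the OASIS arrays (y axis) against that of the Venus arrays (x axis), both in log2 with the 75th percentile of the array at 0, by the brightest probe of each gene. Grey points are the other tested genes, blue points the 42 members not past the threshold and orange points the 5 past it; the solid line is equality and the dashed lines are 2-fold, and the orange points all lie at Venus means below -3.

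Counted by probe, 7 of 76 tested member probes rose, or 9.21%, and 0 fell, where 5.86% of all tested probes rose and 2.48% fell, 8.34% together. The added probes were those of Smad4 and Acvr2a described above. With them 7 members had a probe past the threshold, or 14.9%, where 12.2% of all tested genes had one in either direction. OASIS replicate 1 was above replicate 2 for 4 of the 7 probes. The OASIS arrays differed most from each other for Bmp7, Tgfbi and Bambi, with SDs of 0.65, 0.58 and 0.55 (n = 2).

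Probes of the same gene can lie in different exons or transcript ends, and the sources used here do not give their positions. Of 23 members with several tested probes, 9 had probes with fold changes of opposite sign. For 5 of them, Smad2, Acvr2a, Bmpr1a, Bmpr2 and Tgfbr1, probes of both signs had an adjusted p under 0.1. The second probe of Bmpr1a gave -0.56, that of Bmpr2 -0.51 and that of Tgfbr1 -0.68, against positive values by the brightest probes. The spread between probes of a gene ran from 0.028 for Smad5 to 1.83 for Smad4. For these receptors and Smads a direction therefore holds for a probe and not for the gene. Of the 5 genes that rose, each had a single tested probe, so that no second probe could be set beside it.

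**Figure D4:**
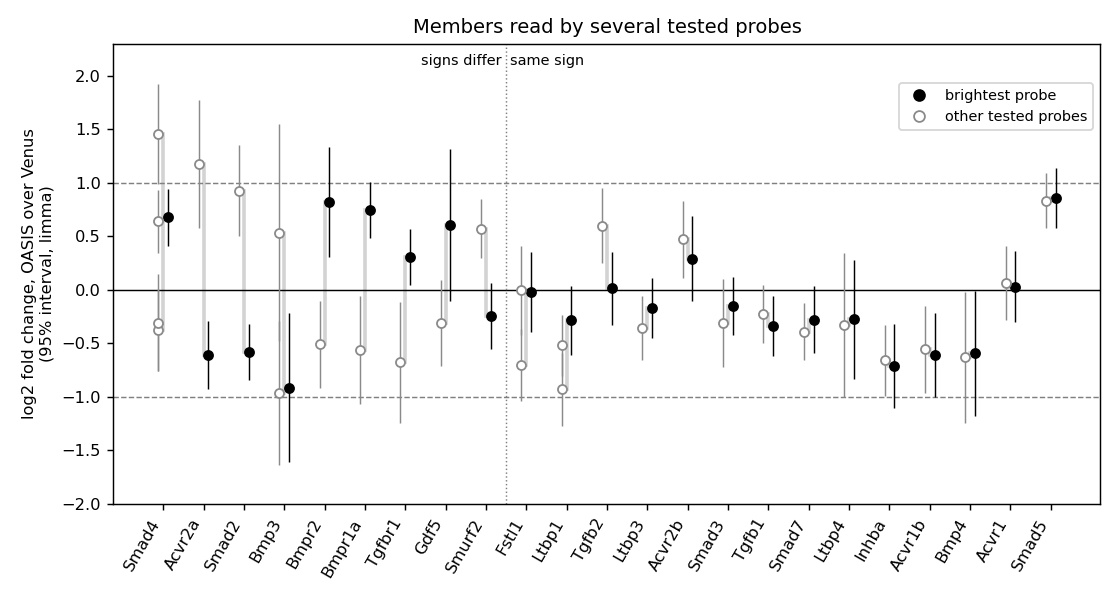
Log2 fold change of OASIS over Venus (y axis) with its 95% interval from limma for every tested probe of the 23 members read by several probes (x axis), ordered by whether the signs differ and then by the spread between probes. Filled points are the brightest probe and open points the others, and dashed lines mark 2-fold; to the left of the dotted line are the 9 members with probes on both sides of 0.

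Further genes of the pathway were taken from 5 lists that hold no members. They named 98 gene symbols, some of them old and new symbols of the same gene, such as Ctgf and Ccn2. On the array were 95, of which 73 were tested, and 4 of these rose and 0 fell. The share that rose, 5.48%, was below the 6.19% of all tested genes. Snai1, a transcription factor of epithelial-mesenchymal transition that TGF-beta can induce, read -0.087 and -0.14 with Venus and 2.78 and 2.36 with OASIS. It had a log2 fold change of 2.68 (SE 0.17, limma adjusted p = 0.00383). Bmp8a, another BMP, read -2.62 and -2.67 with Venus and -0.72 and -1.36 with OASIS, a log2 fold change of 1.60 (limma adjusted p = 0.0155).

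Rgmb, a co-receptor for BMPs, read -3.77 and -3.46 with Venus and -2.37 and -2.19 with OASIS, a log2 fold change of 1.34 (limma adjusted p = 0.00990). Skil, which encodes the Smad repressor SnoN, read 0.71 and 0.79 with Venus and 2.05 and 1.92 with OASIS, a log2 fold change of 1.23 (limma adjusted p = 0.00665). In all 4 the groups were apart, with OASIS the higher. With the mean of a gene's probes in place of the brightest, Rgmb and Skil were not past the threshold, at 0.94 and 0.22, and Rgmb was at 0.93 with normexp background correction. Over the 73 genes the lowest log2 fold change was -0.71 and the median -0.099, and at an adjusted p under 0.1 at any fold 8 (11%) were higher and 15 (20.5%) lower, where 18.5% and 18.3% of all tested genes were.

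By list, 1 of 7 other ligands, 1 of 6 other receptors and co-receptors, 0 of 17 other extracellular regulators, 1 of 19 other intracellular regulators and 1 of 24 transcriptional targets rose. Among the targets, some genes often used as readouts of the pathway are given here by choice and not by the rule for named genes. Ccn2, a target of the TGF-beta branch, had a log2 fold change of -0.20 with an adjusted p over 0.1. Of the BMP-branch targets Id1 and Id3 gave -0.15 and 0.036 with adjusted p over 0.1, and Id2 and Id4 gave 0.61 and 0.66 (limma adjusted p = 0.0386 and 0.0314). None of these 5 genes was past 2-fold, while Snai1, of the same list, and the member Tgfbi, also a TGF-beta target, rose.

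The way the background is corrected changed the size of these rises. With normexp, an alternative correction, the 5 genes kept their direction at smaller sizes, with log2 fold changes of 2.06 for Bambi, 1.97 for Bmp7, 1.60 for Tgfb3, 1.43 for Tgfbi and 0.76 for Smad9, the last no longer past the threshold. The probes of Smad4 and Acvr2a that rose were then at 0.59 and 0.73, short of 2-fold. Without Venus replicate 2, Smad9 was at 0.97, and without Venus replicate 1 the Acvr2a probe was at 0.90. With the methods' t-test on the same values and Benjamini-Hochberg adjustment, only Tgfb3 passed (adjusted p = 0.0990), and the other 4 had adjusted p between 0.106 and 0.123.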

How the data were processed

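Total RNA of 4 samples, 2 Venus and 2 OASIS, was hybridised to 1-colour Agilent mouse expression arrays. The deposited scanner files give background-corrected intensity per spot, as the authors obtained it from Agilent Feature Extraction 12.1.0.3. A further deposited table holds scaled intensity, which is the corrected intensity times a factor per array, with a detection score per spot that marks signals well above background, and with gene symbols and bands. These names and bands were used as deposited. The file headers name another genome build than the gene table at hand, so that no coordinates or sequences are given.

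Corrected intensities were taken to log2 and the 75th percentile of each array over non-control spots was subtracted. Outlier spots were left out, which removed 11 probes and 0 member probes, and repeat spots were averaged per probe. A probe was well above background on an array if a share of 0.5 or more of its spots had that mark, and it was tested if this held on both arrays of at least 1 group. OASIS was fitted against Venus with lmFit and eBayes of limma 3.58.1 (R 4.3.3; files read with the data.table package, version 1.17.8), with Benjamini-Hochberg adjustment over all tested probes. The limits, fold over 2 or under 0.5 and adjusted p under 0.1, were taken from the paper. There the latter is a q-value, used to pick genes of proteins that can be secreted. The paper's array methods do not name the test behind it, and here it is the limma adjusted p. With 2 arrays a group the smallest p of an exact permutation test is 0.333, so that none was run. A gene was counted by the tested probe with the highest mean of all 4 arrays, whereby a change can itself decide which probe that is. A probe that neither array of a group measured well above background has only a bound, the mean of the brighter group against a floor for the dimmer one, which per array is its own value or the lowest signal well above background, whichever is higher. The size of such a bound depends on the background correction. Summed marker levels are linear intensities over the 75th percentile, by the brightest probe of every listed gene on the array, tested or not.

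The members and lists were chosen with earlier results of these data known. Values on each array are given for members with a probe past the threshold and for Tgfb1, Tgfb2, Tgfb3, Tgfbr1, Tgfbr2, Bmpr1a, Bmpr2, Smad1, Smad3, Smad4, Smad7, Ltbp1 and Gdf15. Of the other pathway lists the genes past the threshold are named, at most the 5 largest per list and direction. Values of some listed genes are not reported here. Alternatives were quantile or median normalization, normexp with an offset of 50 on the median spot signal, the authors' scaled values, no filter, a filter on all 4 arrays, outlier spots kept, the mean over all tested probes of a gene, the brightest probe on the Venus arrays, the methods' t-test, an intensity trend, a stricter adjusted p of 0.05, leaving out each array, and a block for the replicate number. A slide block was not fitted, since there was 1 slide. The fit was tested on simulated data with 200 genes changed. That simulation drew independent noise and took every probe as measured, so that it says nothing about signals near background.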

Additional observations from a re-analysis of the deposited data

How the results depend on the processing

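Of the 47 tested members, 598 of 610 comparisons with a setting on all arrays kept direction and side of the threshold, 5 were no longer past it and 7 reversed. The count of member genes that rose, 5, was 1 with the methods' t-test and 5 to 6 when an array was left out, and the count that fell, 0, was 0 to 1, with Bmp3 past the threshold at -1.29 without OASIS replicate 2. Since no member was 2-fold lower on all arrays, this 0 is the same under limma, the methods' t-test or an unadjusted p under 0.05. Member probes that rose, 7, were 4 with normexp, 1 with the t-test and 6 to 10 when an array was left out, and those that fell, 0, were 0 to 3, with 3 without OASIS replicate 2. Other pathway genes that rose, 4, were 3 with normexp, 5 without a filter, 2 with the mean of a gene's probes and 2 with the t-test. Those that fell, 0, were 1 with the mean of probes. With the mean of probes, log2 fold changes reversed to 0.29 for Acvr2a, 0.17 for Smad2, 0.16 for Smurf2 and -0.19 for Tgfbr1. By the brightest probe on the Venus arrays, Gdf5 was at -0.31. Tgfb2 was at -0.00727 with quantile and -0.00413 with median normalization. When an array was left out, values crossed 0 for Acvr1 (-0.081 to 0.14), Acvrl1 (-0.45 to 0.18), Fstl1 (-0.17 to 0.12), Gdf15 (-0.017 to 0.082), Id3 (-0.0074 to 0.080), Smurf1 (-0.073 to 0.019) and Tgfb2 (-0.12 to 0.14), and Bmp2 passed the threshold without Venus replicate 2 (1.09) or OASIS replicate 2 (1.08), as Bmpr2 did without OASIS replicate 1 (1.08). Tgfbi was not tested under the filter on all 4 arrays, and the Acvr2a probe that rose was at 0.90 without Venus replicate 1 and had a limma adjusted p of 0.111 without a filter. With the replicate number as a block, 5 member genes and 7 member probes rose and 0 fell, and the block changed no call. Deviations of same-numbered arrays correlated at 0.26, and with 2 pairs the numbers are not taken to pair the samples. With an array left out, the fit takes the spread of the lone array from the other group. The causes of these differences were not tested.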
